A study of Mus musculus with 48 samples.

Results

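Transcripts of 10 genes that mark vascular endothelium, the cell layer that lines blood vessels, were followed through the making and engraftment of mouse liver spheroids. The 10 genes were a list chosen by name: *Pecam1*, *Cdh5*, *Tek*, *Kdr*, *Flt1*, *Tie1*, *Plvap*, *Emcn*, *Eng* and *Esm1*. All 10 were found among the 46517 genes counted.

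Bulk RNA was sequenced from 3 livers, 3 preparations enriched for hepatocytes, 2 samples of in vitro spheroids, 5 explants and 3 naïve irises, each as 3 technical libraries that were summed here. All samples are labelled WT Albino and C57BL/6N, with no transgene or drug named for any group. The paper calls its albino strain Albino B6/J and does not name C57BL/6N. The study used adult mice of both sexes, at least 3 months old. Livers were whole tissue of donor mice. Hepatocyte preparations were the pelleted fraction of livers perfused with collagenase and spun in Percoll, a step meant to leave non-parenchymal cells behind. In vitro spheroids were aggregates of such preparations in low-adherence wells. Explants were spheroids placed on the iris in the anterior chamber of the eye (ACE) of recipient mice and dissected 2 months after transplantation (post-tx) with the iris around them, so an explant holds graft and iris RNA together. Irises came from eyes without grafts. The study calls its samples biological replicates, but the labels do not tie each sample to an animal, so the tests measure the spread between these samples.

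Endothelial cells hold together through the adhesion molecules that *Pecam1* (CD31) and *Cdh5* (VE-cadherin) encode. They grow toward vascular endothelial growth factor (VEGF), read by the receptors KDR (VEGFR2) and FLT1 (VEGFR1, largely a trap for the ligand). Angiopoietins are read by TEK (TIE2) with its partner TIE1. *Eng* encodes endoglin, a co-receptor for BMP9, *Plvap* the diaphragm protein of fenestrae and caveolae, *Emcn* the capillary and venous sialomucin endomucin, and *Esm1* endocan, a proteoglycan secreted by sprouting tip cells. The liver is lined mainly by sinusoidal endothelium with open fenestrae, which differs from the continuous capillaries of the iris.

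Positions are those of GRCm38. *Tek* spans chromosome 4 from 94739289 to 94874976 on the plus strand and *Kdr* chromosome 5 from 75932827 to 75978458 on the minus strand. *Emcn* spans chromosome 3 from 137341067 to 137432185 and *Esm1* chromosome 13 from 113209659 to 113218098, both on the plus strand. *Eng* shares 61 of its 4048 exon bases with *Fpgs* on the other strand, and counting was unstranded, so reads in that stretch cannot be told apart. None of the other 9 genes shared exon bases with another gene. RefSeq (GRCm38.p6) promoter windows matched 7 of the 10 genes. The 250 bases before the start of 4 of them are shown, since these 4 genes moved in opposite directions in culture. Capitals mark ETS matches, searched as AGGAAG or CGGAAG on both strands. These sequences are some of the forms bound by the ETS factors active in endothelium. The *Tek* window is chr4:94739039-94739288 on the plus strand and the *Kdr* window chr5:75978456-75978705 on the minus strand. The *Emcn* window is chr3:137340828-137341077 and the *Esm1* window chr13:113209409-113209658, both on the plus strand.
Emcn: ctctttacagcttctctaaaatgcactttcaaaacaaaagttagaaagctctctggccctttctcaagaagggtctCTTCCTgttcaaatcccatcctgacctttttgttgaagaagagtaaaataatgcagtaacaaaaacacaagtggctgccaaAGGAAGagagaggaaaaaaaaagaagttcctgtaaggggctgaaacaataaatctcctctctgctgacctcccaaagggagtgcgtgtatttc
Esm1: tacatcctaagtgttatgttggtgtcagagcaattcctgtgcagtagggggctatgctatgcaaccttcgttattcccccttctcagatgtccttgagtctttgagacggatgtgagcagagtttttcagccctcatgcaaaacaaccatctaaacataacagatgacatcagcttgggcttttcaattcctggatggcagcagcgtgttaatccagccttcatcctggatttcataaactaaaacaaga
Tek: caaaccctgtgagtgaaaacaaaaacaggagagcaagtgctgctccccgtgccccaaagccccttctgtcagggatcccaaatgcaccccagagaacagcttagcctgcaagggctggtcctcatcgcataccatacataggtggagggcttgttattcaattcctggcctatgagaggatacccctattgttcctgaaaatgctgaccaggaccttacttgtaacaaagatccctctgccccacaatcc
Kdr: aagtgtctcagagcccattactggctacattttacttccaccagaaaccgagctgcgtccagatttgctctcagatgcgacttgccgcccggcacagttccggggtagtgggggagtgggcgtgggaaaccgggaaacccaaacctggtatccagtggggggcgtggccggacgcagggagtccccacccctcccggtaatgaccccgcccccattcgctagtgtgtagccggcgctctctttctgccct

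The *Emcn* window held 2 such matches, which did not overlap, and those of *Esm1*, *Tek* and *Kdr* held 0. The *Esm1*, *Tek* and *Kdr* windows do hold the shorter GGAA on the plus or minus strand, which was not searched. A count of 0 thus does not mean that an ETS site is absent. Windows of *Flt1*, *Tie1* and *Eng* held 2 each. A match was in 4 of 7 windows of these genes and in 39.2% of 32851 windows of the same length.

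Totals were 2718518 to 6789648 counts per sample, with the explants deepest and the hepatocyte preparations shallowest, and a member had between 0 and 638 counts in a sample. Levels are given as TPM, transcript levels that divide counts by gene length and by the sample's total, scaled to the same sum in each sample. Fold changes are edgeR log2 values after TMM scaling with their standard error (SE), and a gene was called where the Benjamini-Hochberg adjusted p over all genes tested was under 0.05. The scales differ, because TMM factors were 1.16 to 1.26 in explants and irises and 0.73 to 0.96 in the other groups. Scaled by library size alone, the median log2 fold change of all genes moved from 0.25 to 0.68 for explants against in vitro spheroids, from 0.17 to 0.80 for explants against livers, from 0.01 to 0.27 for in vitro spheroids against hepatocyte preparations and from 0.01 to -0.10 for hepatocyte preparations against livers. Markers of the labelled tissues were highest in those tissues but not absent from the others. *Hnf4a*, a hepatocyte transcription factor, was at 159 to 234 TPM in livers, hepatocyte preparations and in vitro spheroids and at 1.46 to 2.14 TPM in irises. *Pax6*, an eye transcription factor, was at 197 to 204 TPM in irises and at 1.65 to 3.38 TPM in livers, preparations and spheroids. Whole lists were less clean. The 8 listed hepatocyte genes summed to 1129 to 1333 TPM in irises and 9655 to 10223 TPM in livers. The 8 listed iris genes summed to 450 to 465 TPM in livers and 7185 to 7623 TPM in irises. The source of this signal was not tested. In bulk RNA, fewer cells of a type and less RNA per cell cannot be told apart.

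The summed level of the 10 genes was lowest in hepatocyte preparations, at 58.0 ± 18.03 TPM (SD, n = 3). It was 168 ± 46.7 TPM in livers (n = 3), 93.7 ± 10.7 TPM in in vitro spheroids (n = 2), 190 ± 17.6 TPM in explants (n = 5) and 154 ± 7.56 TPM in irises (n = 3). The sums of hepatocyte preparations, 75.0, 39.1 and 59.8 TPM, all lay below those of the in vitro spheroids, 101 and 86.1 TPM. Explants, at 166 to 212 TPM, all lay above irises, at 147 to 162 TPM, and both overlapped livers, at 124 to 217 TPM. *Eng* was the most abundant member in each group on average, at 23.1 to 70.3 TPM, and *Flt1* was at 0.591 to 3.41 TPM.

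**Figure D1:**
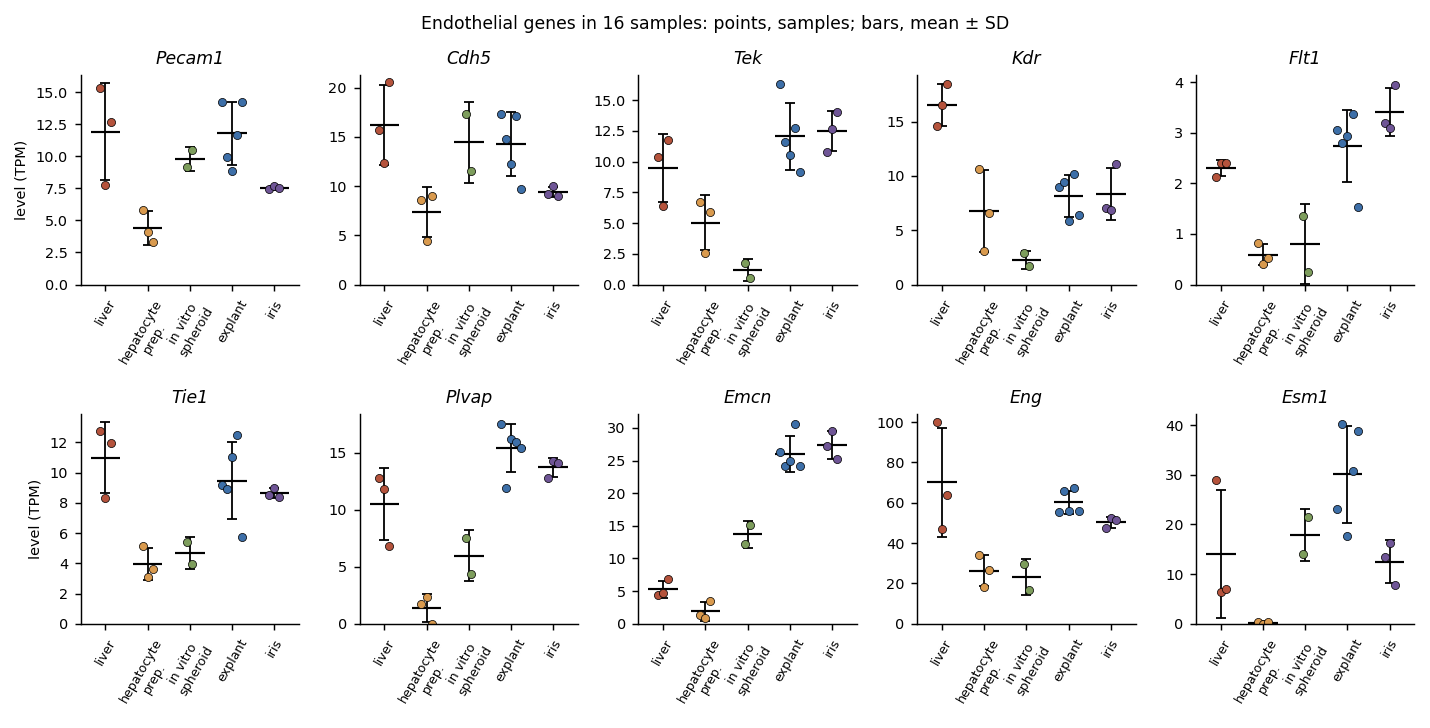
Level of each gene in TPM (vertical axes, from 0, a scale per gene) in each of the 16 samples, grouped on the horizontal axes. Points are samples and bars the mean ± SD. *Emcn* sits at 24.1 to 30.6 TPM in explants and 25.2 to 29.5 TPM in irises and at 4.38 to 6.83 TPM in livers, while *Kdr* is highest in livers, at 14.6 to 18.5 TPM.

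Hepatocyte preparations against livers addresses how much endothelial RNA was carried out of the liver with the hepatocytes. All 10 genes had a lower mean in the preparations, and 3 were called lower: *Esm1*, *Flt1* and *Tie1*. Of the 12236 genes tested, 2.84% were called lower, and 0.785% higher. The counts for the members were 3 of 10 lower and 0 higher by edgeR. At an unadjusted edgeR p under 0.05, 9 members were lower and 0 higher, against 1808 lower and 1292 higher over the 12236 genes. DESeq2 called 7 members lower and limma-voom 0, against 663 and 11 over all genes. Neither called a member higher. The median log2 fold change of the 10 was -1.30, against 0.01 over all genes.

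The tip-cell gene *Esm1* was at 28.9, 6.38 and 6.92 TPM in livers and at 0.334, 0 and 0.429 TPM in preparations. The groups did not overlap, and liver 1 stood well above the other two livers. The preparations held 2 counts of *Esm1* in all, against 128 in the livers, a ratio per total count of 54.5 with an exact 95% interval of 14.8 to 455 that covers counting error only. Without liver 1, which gave 87 of the 128 counts, the ratio was 26.2, with an interval of 6.80 to 224, and the fitted log2 fold change -4.41. With all livers its fitted log2 fold change of -5.43 (SE 0.99, adjusted p = 0.0374) depends on the prior count at so few reads. *Flt1* was at 2.12, 2.40 and 2.39 TPM in livers and at 0.830, 0.412 and 0.533 TPM in preparations, with no overlap, and its log2 fold change was -1.80 (SE 0.33, adjusted p = 0.0374). *Tie1* was at 12.8, 8.30 and 11.9 TPM in livers and at 5.13, 3.07 and 3.66 TPM in preparations, again without overlap, with a log2 fold change of -1.33 (SE 0.28, adjusted p = 0.0438). These 3 calls were thin. *Flt1* and *Tie1* kept theirs only without hepatocyte preparation 1, and *Esm1* only without liver 1; leaving out any other sample gave adjusted p of 0.0515 to 0.154.

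The largest other difference was that of the diaphragm gene *Plvap*, at 12.8, 11.9 and 6.87 TPM in livers. *Plvap* was at 1.74, 2.37 and 0 TPM in preparations, where it had 5, 6 and 0 counts. Its log2 fold change of -2.72 (SE 0.64) missed the threshold, with an adjusted p of 0.0560. *Pecam1* (-1.28, SE 0.30, adjusted p = 0.0541) and *Eng* (-1.26, SE 0.29, adjusted p = 0.0545) missed it as narrowly. The angiopoietin receptor gene *Tek* differed least. It was at 10.3, 6.42 and 11.8 TPM in livers and 6.69, 2.53 and 5.92 TPM in preparations, and its groups overlapped. Its log2 fold change was -0.77 (SE 0.38, adjusted p = 0.249).

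Genes of other cell types moved with the members here. Of 24 other endothelial genes 22 were tested, 4 were called lower (*Vwf*, *Erg*, *Fli1* and *Ptprb*) and 0 higher, with a median log2 fold change of -1.21. Of 12 sinusoidal genes 2 were lower, *Lyve1* and *Rspo3*, with a median of -0.76. Macrophage genes were lower in 3 of 9 tested and mural cell genes, which mark the cells that wrap vessels, in 3 of 6. *Ramp2*, listed as endothelial, was at 123 to 133 TPM in preparations and 142 to 144 TPM in livers, and *S1pr1*, a receptor for a blood-borne lipid, at 71.9 to 127 TPM and 44.4 to 77.5 TPM.

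In vitro spheroids against hepatocyte preparations addresses what became of these transcripts in culture. The members split: *Esm1* and *Emcn* were higher in spheroids and *Tek* and *Kdr* were lower. Both directions were common among all 12247 genes tested, of which 12.5% were called higher and 13.4% lower, and the members' 2 and 2 of 10 are near those shares. The median log2 fold change of the 10 was 0.34, against 0.01 over all genes.

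*Esm1* was at 14.1 and 21.5 TPM in spheroids, from 39 and 56 counts, where the preparations had 1, 0 and 1. The ratio of counts per total was 67.0, with an exact 95% interval of 18.1 to 561, and the fitted log2 fold change was 5.62 (SE 0.68, adjusted p = 0.00152). *Esm1* stayed called whichever sample was left out, with adjusted p of 0.00392 to 0.00940. *Emcn* was at 12.2 and 15.2 TPM in spheroids and at 1.29, 0.881 and 3.49 TPM in preparations, with no overlap and a log2 fold change of 2.56 (SE 0.51, adjusted p = 0.0107). Without in vitro spheroid 2, the value for *Emcn* was 2.26 and its adjusted p 0.0616. Both spheroid samples also exceeded the 3 livers in *Emcn*, at 4.38, 4.69 and 6.83 TPM, a pair of groups that was not tested.

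The receptor genes went the other way. *Tek* was at 1.77 and 0.512 TPM in spheroids, from 11 and 3 counts, and at 6.69, 2.53 and 5.92 TPM in preparations, and its log2 fold change was -2.46 (SE 0.63, adjusted p = 0.0256). *Kdr* was at 2.86 and 1.69 TPM in spheroids and at 10.6, 3.08 and 6.57 TPM in preparations, with a log2 fold change of -1.91 (SE 0.52, adjusted p = 0.0317). For both genes the 2 spheroid samples lay below all preparations. Preparation 2 was close to them for *Kdr*. Both calls were lost without hepatocyte preparation 1 or 3 or either spheroid sample, with adjusted p of 0.0506 to 0.150, and *Kdr* had an adjusted p of 0.0597 with library size alone.

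The other 6 genes were not called. *Pecam1* was at 9.15 and 10.5 TPM in spheroids against 5.85, 4.08 and 3.32 TPM (log2 fold change 0.82, SE 0.31, adjusted p = 0.0853). *Cdh5* was at 17.4 and 11.5 TPM against 8.61, 4.39 and 9.02 TPM (0.63, SE 0.36, adjusted p = 0.233). The groups of these genes did not overlap. *Tie1* (-0.10, SE 0.36), *Flt1* (0.05, SE 0.66), *Eng* (-0.54, SE 0.30) and *Plvap* (1.71, SE 0.75) had adjusted p of 0.130 to 0.962, and the sign for *Tie1* turned with library size alone, to 0.16.

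Other genes of the vessel wall were split in culture as well. Of 9 sprouting genes, a list of genes enriched at vessel tips, 5 were tested, and 3 were higher in spheroids, *Kcne3* (log2 fold change 4.61), *Unc5b* (3.45) and *Angpt2* (2.19), with 0 lower. Among the other endothelial genes 17 were tested. *Cd34* (3.92) and *Cd93* (2.33), surface glycoproteins of endothelium and blood cell precursors, were higher, and *Ptprb* (-3.73), the phosphatase that acts on TEK, and *S1pr1* (-3.21) were lower. Among the partners of the receptors 8 were tested, of which the VEGF co-receptor gene *Nrp1* was lower (-2.44) and *Notch1* higher (1.30). The sinusoidal genes *Wnt2* (-6.77), *Dnase1l3* (-4.63), *Clec4g* (-2.54) and *Stab2* (-1.58) were lower and *Lyve1* (1.41) higher among 11 tested. Macrophage genes were higher in 5 of 9, and their summed level was 612 to 770 TPM in spheroids against 175 to 294 TPM in preparations. Their part in the members' values was not tested.

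**Figure D2:**
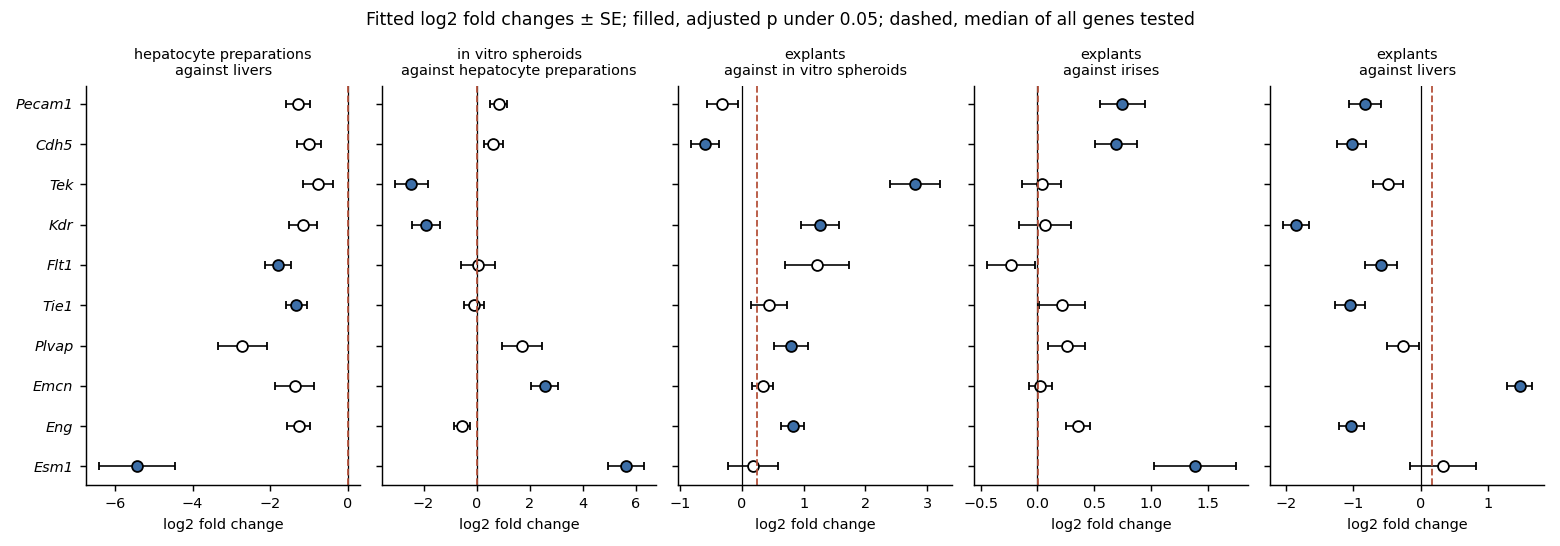
Log2 fold change (horizontal axes, a scale per panel) of each gene in the 5 comparisons of counts, with bars of 1 SE. Filled points are called and dashed lines show the median of all genes tested. *Tek* and *Kdr* lie at -2.46 and -1.91 in spheroids against preparations and at 2.80 and 1.27 in explants against spheroids, 2 comparisons that share the spheroid samples.

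Explants against in vitro spheroids addresses what engraftment added. *Tek*, *Kdr*, *Eng* and *Plvap* were higher in explants and *Cdh5* was lower. Of the 17059 genes tested, 37.5% were called higher and 29.5% lower, so 4 of 10 higher is close to the background and 1 of 10 lower is below it. The median log2 fold change of the 10 was 0.61, against 0.25 over all genes. The explants contain iris, and 8 of 8 genes of the iris list were called higher and 8 of 8 hepatocyte genes lower, so iris RNA and engraftment cannot be told apart in this comparison.

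*Tek* was at 16.3, 11.6, 10.6, 12.7 and 9.13 TPM in explants 1, 2, 4, 5 and 6 and at 1.77 and 0.512 TPM in spheroids. Every explant exceeded both spheroid samples, by a ratio of mean TPM of 10.6, and the log2 fold change was 2.80 (SE 0.40, adjusted p = 0.000359). *Kdr* was at 8.98, 9.40, 5.89, 10.2 and 6.35 TPM in explants against 2.86 and 1.69 TPM, without overlap (log2 fold change 1.27, SE 0.30, adjusted p = 0.00580). Without in vitro spheroid 2, *Kdr* was at 1.02 with an adjusted p of 0.0560. *Eng* was at 55.7, 65.7, 56.0, 67.5 and 56.0 TPM in explants against 29.5 and 16.7 TPM (0.82, SE 0.19, adjusted p = 0.00517), again without overlap. *Tek* and *Eng* stayed called whichever sample was left out.

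*Plvap* was at 11.9 to 17.6 TPM in explants against 7.55 and 4.39 TPM in spheroids (log2 fold change 0.79, SE 0.28, adjusted p = 0.0316). Its groups did not overlap, but without explant 1, 4, 5 or 6 or in vitro spheroid 2 its adjusted p was 0.0514 to 0.167. *Flt1* (1.21, SE 0.51, adjusted p = 0.0637), *Tie1* (0.43, SE 0.29, adjusted p = 0.211) and *Emcn* (0.33, SE 0.17, adjusted p = 0.116) also had every explant above both spheroid samples in TPM and were not called. With library size alone all 3 passed the threshold, at 1.61, 0.87 and 0.78.

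The adhesion genes *Cdh5* and *Pecam1* and the tip-cell gene *Esm1* had overlapping groups. *Cdh5* was at 17.3, 14.8, 12.2, 17.1 and 9.72 TPM in explants and at 17.4 and 11.5 TPM in spheroids. Its log2 fold change of -0.60 (SE 0.23, adjusted p = 0.0478) was called lower only by a narrow margin. It was -0.17 with library size alone, and the adjusted p was 0.0502 to 0.303 when any one of explants 1, 2, 4 and 6 or either spheroid sample was left out. *Pecam1* was at 8.85 to 14.3 TPM in explants against 9.15 and 10.5 TPM, with a log2 fold change of -0.32 (SE 0.25, adjusted p = 0.286) that turned to 0.12 with library size alone. *Esm1* was at 23.1, 40.3, 17.7, 30.8 and 38.8 TPM in explants against 14.1 and 21.5 TPM (0.18, SE 0.41, adjusted p = 0.708), with every explant but explant 4 above both spheroid samples.

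Explants against irises sets the mixture of graft and iris beside iris from eyes without grafts. *Esm1*, *Pecam1* and *Cdh5* were higher in explants, by 2.41, 1.56 and 1.52 times in mean TPM, and 0 of 10 were lower. Of the 16764 genes tested, 9.04% were called higher and 2.74% lower. At an unadjusted edgeR p under 0.05, 4 members were higher and 0 lower, against 2956 higher and 1670 lower over the 16764 genes. DESeq2 called 4 members higher and limma-voom 0, against 1831 and 811 over all genes. Neither called a member lower. The median log2 fold change of the 10 was 0.24, against 0.01 over all genes.

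*Esm1* was at 23.1, 40.3, 17.7, 30.8 and 38.8 TPM in explants and at 13.4, 16.2 and 7.81 TPM in irises. The groups did not overlap, although explant 4 and iris 2 lay close together. The log2 fold change was 1.39 (SE 0.36, adjusted p = 0.0360). *Pecam1* was at 14.2, 9.94, 8.85, 11.7 and 14.3 TPM in explants and at 7.42, 7.73 and 7.50 TPM in irises, again without overlap, with a log2 fold change of 0.75 (SE 0.20, adjusted p = 0.0380). *Cdh5* was at 17.3, 14.8, 12.2, 17.1 and 9.72 TPM in explants and at 9.18, 9.98 and 8.98 TPM in irises. Explant 6 lay within the range of the irises and the other 4 above it, and the log2 fold change was 0.69 (SE 0.19, adjusted p = 0.0411).

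Without explant 4 all 3 genes stayed called, with adjusted p of 0.0111 for *Pecam1* and 0.0126 for *Esm1*. *Esm1* also stayed called without explant 1 or 6, and *Cdh5* without explant 6, with an adjusted p of 0.0168. All 3 were lost without explant 2, explant 5 or any single iris, with adjusted p of 0.0532 to 0.145. Without explant 1, *Pecam1* and *Cdh5* had adjusted p of 0.0594 and 0.0655, and without explant 6 *Pecam1* had 0.0511. The log2 fold changes themselves moved little, to 1.14 to 1.60 for *Esm1*, 0.59 to 0.85 for *Pecam1* and 0.62 to 0.76 for *Cdh5*.

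*Eng* also had every explant above every iris, at 55.7 to 67.5 TPM against 47.3, 52.5 and 51.2 TPM, but was not called (log2 fold change 0.36, SE 0.11, adjusted p = 0.0579). The receptors did not separate the groups. *Tek* was at 9.13 to 16.3 TPM in explants and 10.8 to 14.03 TPM in irises (0.04, SE 0.17), *Kdr* at 5.89 to 10.2 TPM and 6.89 to 11.1 TPM (0.07, SE 0.23), and *Tie1* at 5.74 to 12.5 TPM and 8.39 to 9.01 TPM (0.22, SE 0.20). *Flt1* was at 1.52 to 3.36 TPM in explants and 3.09 to 3.95 TPM in irises (-0.23, SE 0.21), *Plvap* at 11.9 to 17.6 TPM and 12.8 to 14.3 TPM (0.26, SE 0.16), and *Emcn* at 24.1 to 30.6 TPM and 25.2 to 29.5 TPM (0.03, SE 0.10). Adjusted p for these 6 was 0.345 to 0.912. The signs for *Tek*, *Kdr* and *Emcn* turned with library size alone, to -0.04, -0.02 and -0.06.

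Each explant is a mixture in its own proportion. The iris share that the authors subtracted, solved here from the deposited columns, was 82%, 68%, 81%, 72% and 59% for explants 1, 2, 4, 5 and 6. Of the 10 genes, explant 5 had 9 above the mean of the irises, explant 1 had 8, explants 2 and 4 had 6 each and explant 6 had 5. Explant 6, with the least iris, had the lowest value of 5 genes (*Cdh5*, *Tek*, *Flt1*, *Tie1* and *Emcn*), and its *Flt1* and *Tie1* lay at -1.17 and -0.59 on the log2 scale relative to the irises. The same explant had *Esm1* at 1.63 and *Pecam1* at 0.92 on that scale. Explant 5 had the highest value of 5 genes (*Kdr*, *Flt1*, *Tie1*, *Emcn* and *Eng*). *Eng* varied least, from 0.15 to 0.42, followed by *Emcn*, from -0.18 to 0.16.

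**Figure D3:**
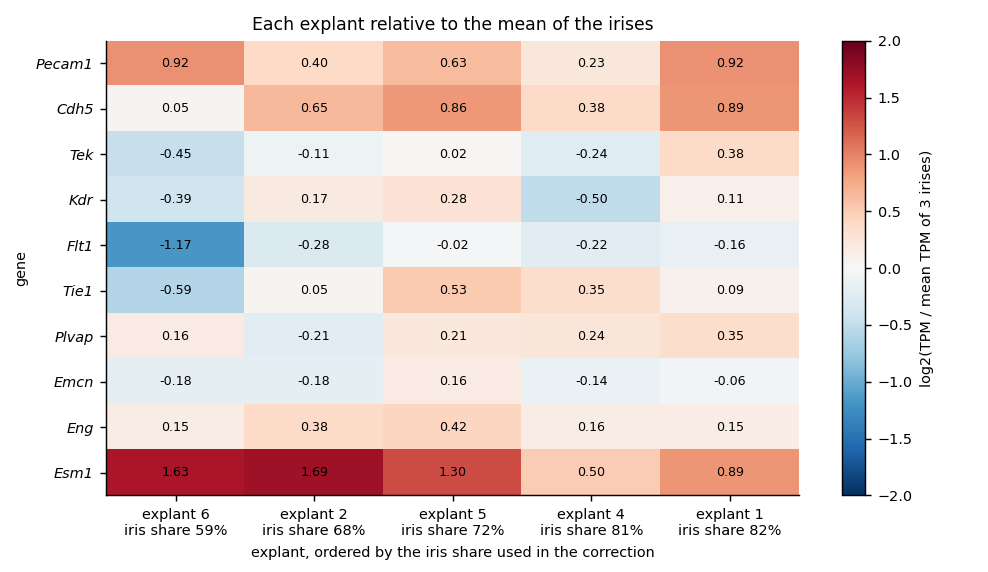
Log2 ratio of the TPM of each gene (rows) in each explant (columns, ordered by iris share) to the mean TPM of the 3 irises. *Esm1* is above 0 in all 5 explants, from 0.50 in explant 4 to 1.69 in explant 2, and *Flt1* is below 0 in all 5, from -1.17 to -0.02.

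Macrophages express *Pecam1* at a low level too, and their genes moved with the explants. Of 10 macrophage genes 6 were called higher in explants than in irises, and 0 lower. Their summed level was 1396, 2516, 1114, 1725 and 3107 TPM in explants 1, 2, 4, 5 and 6 against 769 to 826 TPM in irises, with none of the 10 genes at 0 in any group. It was highest in explant 6, where *Pecam1* was highest of the 5 explants, at 14.3 TPM, and *Cdh5*, *Tie1* and *Tek* were lowest. Explant 1 had nearly the same *Pecam1* level, at 14.2 TPM, with a macrophage sum of 1396 TPM. Mural cell genes were split, with *Rgs5* higher (log2 fold change 0.89) and *Acta2* (-0.35) and *Kcnj8* (-0.38) lower among 8. Platelet genes summed to 51.6 to 131 TPM in explants and 64.0 to 94.9 TPM in irises. The part of macrophages and mural cells in the members' values was not tested.

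The ligands and partners of these receptors were read from lists. Of 8 ligand genes tested, *Vegfd* (log2 fold change -0.74), *Pgf* (-0.65) and *Vegfb* (-0.37), all of the VEGF family, were lower in explants than in irises, and 0 were higher. *Pgf* was at 39.9 to 63.1 TPM in explants, 84.0 to 97.1 TPM in irises and 0 to 0.834 TPM in livers. Of 12 partner genes tested, *Dll4* (1.04), the Notch ligand of tip cells, and *Nrp1* (0.42) were higher and 0 were lower. *Nrp1* was at 123 to 151 TPM in explants and 107 to 120 TPM in irises. Of 8 sprouting genes *Kcne3* (3.15), *Dll4* (1.04) and *Nid2* (0.35) were higher, and 0 lower. *Kcne3*, a potassium channel subunit, was at 6.34 to 22.8 TPM in explants, 0.706 to 2.10 TPM in irises, 6.56 to 15.8 TPM in livers and 14.6 to 16.4 TPM in in vitro spheroids. Of 23 other endothelial genes *Cd93* (1.28) and *Fli1* (1.04), an ETS factor that blood cells also express, were higher, and 0 lower. The medians of these 4 lists were -0.15, 0.22, 0.34 and 0.21, against 0.01 over all genes. Of all genes tested, 9.04% were called higher and 2.74% lower, and 2 of 23 other endothelial genes higher is near that share.

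Explants against livers sets the mixture beside native liver. *Emcn* was higher in explants, and *Kdr*, *Tie1*, *Eng*, *Cdh5*, *Pecam1* and *Flt1* were lower after TMM scaling. Of the 16506 genes tested, 38.6% were called higher and 32.5% lower. The median log2 fold change of the 10 was -0.71, against 0.17 over all genes. Scaled by library size alone, 1 gene was higher, *Emcn*, and 1 lower, *Kdr*, and the split of all genes went from 6364 higher and 5362 lower to 9547 and 3109. Only the results for *Emcn* and *Kdr* thus held under both scalings.

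*Emcn* was at 26.3, 24.2, 24.9, 30.6 and 24.1 TPM in explants and at 4.38, 4.69 and 6.83 TPM in livers. The groups lay far apart, with a ratio of mean TPM of 4.91 and a log2 fold change of 1.46 (SE 0.18, adjusted p = 5.53e-05), or 2.10 with library size alone. *Kdr* was at 5.89 to 10.2 TPM in explants and at 14.6, 16.5 and 18.5 TPM in livers. Every liver exceeded every explant, by 2.03 times in mean TPM, and the log2 fold change was -1.85 (SE 0.19, adjusted p = 1.89e-05), or -1.21 with library size alone. *Emcn* and *Kdr* stayed called whichever sample was left out.

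The other 5 called genes overlapped in TPM. *Tie1* had a log2 fold change of -1.04 (SE 0.22), *Eng* of -1.03 (SE 0.19), *Cdh5* of -1.02 (SE 0.21), *Pecam1* of -0.83 (SE 0.24) and *Flt1* of -0.59 (SE 0.23), with adjusted p of 0.000734 to 0.0444. With library size alone these were -0.41, -0.41, -0.38, -0.20 and 0.05, so *Flt1* changed sign. *Flt1* also lost its call without explant 1, 2 or 4 or liver 2 or 3, with adjusted p of 0.0643 to 0.116. *Esm1* overlapped, with liver 1 at 28.9 TPM against 6.38 and 6.92 TPM in livers 2 and 3. Its log2 fold change was 0.33 (SE 0.49, adjusted p = 0.568), and without liver 1 it was 1.32 with an adjusted p of 0.0220. *Tek* (-0.49, SE 0.22, adjusted p = 0.0714) and *Plvap* (-0.27, SE 0.24, adjusted p = 0.330) were not called and turned to 0.15 and 0.36 with library size alone.

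Genes of the liver's own endothelium were mostly lower in explants, and so were hepatocyte genes. Of 12 sinusoidal genes, explants had 10 lower and 0 higher, among them *Clec4g* (log2 fold change -6.32), *Oit3* (-5.73), *Dnase1l3* (-4.83) and *Gata4* (-4.72). Their median was -3.84. Of 8 hepatocyte genes, 8 were called lower, with a median of -2.71. Dilution by iris RNA and less sinusoidal RNA in the graft cannot be told apart in this comparison. *Clec4g*, a lectin of sinusoidal cells, was at 97.9 to 175 TPM in livers, 22.6 to 110 TPM in hepatocyte preparations, 13.4 and 19.1 TPM in in vitro spheroids, 0 to 8.52 TPM in explants and 0.487 to 1.30 TPM in irises. *Cldn5*, the tight junction gene of continuous vessels, was at 113 to 151 TPM in explants, 99.95 to 127 TPM in irises and 32.03 to 38.3 TPM in livers, and its log2 fold change against livers was 1.11. *Gdf2*, which encodes the endoglin ligand BMP9, was at 19.1 to 57.4 TPM in livers, 0 to 2.40 TPM in explants and 0 TPM in all irises.

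Corrected explants against livers asks what remains of the explants once the iris is taken out. For each explant the mean TPM of the irises times its iris share was subtracted and the rest divided by the graft's share. This was done here with the stated formula for all 5 explants, because the deposited column of explant 4 followed another one. *Esm1* and *Emcn* were higher than in livers and 0 genes were lower by limma on log2(TPM + 1), a scale that understates changes of low genes. Of the 21002 genes tested, 12.2% were called higher and 3.5% lower, with a median of 0.61, so the members' values are read against that shift. Their own median was 0.53. At an unadjusted limma p under 0.05 the counts of members were also 2 higher and 0 lower, against 4690 higher and 1713 lower over all genes.

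*Esm1* was at 71.4, 99.2, 39.8, 78.0 and 76.6 TPM in corrected explants 1, 2, 4, 5 and 6 and at 28.9, 6.38 and 6.92 TPM in livers. Every corrected explant exceeded every liver, by 5.19 times in mean TPM, and the log2 fold change was 2.56 (SE 0.52, adjusted p = 0.0115). Without liver 1, the highest liver, the ratio of mean TPM was 10.98 and the log2 fold change 3.22, with an adjusted p of 0.00495. Without liver 2 or 3 the log2 fold change was 2.21 and 2.26, with adjusted p of 0.0668 and 0.0686. *Emcn* was at 21.3, 17.5, 14.4, 39.1 and 19.5 TPM in corrected explants against 4.38, 4.69 and 6.83 TPM, without overlap, with a log2 fold change of 1.83 (SE 0.43, adjusted p = 0.0208). Without liver 1, 2 or 3 the adjusted p for *Emcn* was 0.0721 to 0.103. Explant 5 was the highest for *Emcn*.

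The other 8 genes scattered widely after subtraction. *Pecam1* was at 14.4 to 44.8 TPM (log2 fold change 0.88, SE 0.46) and *Cdh5* at 10.2 to 53.6 TPM (0.71, SE 0.51), with explant 1 highest for both. *Tek* was at 2.27 to 33.5 TPM (-0.06, SE 0.75) and *Tie1* at 1.55 to 22.3 TPM (-0.08, SE 0.72). *Kdr* was at 11.9, 11.7, -4.56, 14.8 and 3.49 TPM before negative values were set to 0, against 14.6 to 18.5 TPM in livers (-1.43, SE 0.89, adjusted p = 0.309). *Flt1* came out at -1.20 TPM in explant 6. A negative value means that the subtracted iris part was larger than the measured level. *Plvap* was at 8.05 to 34.9 TPM (0.89, SE 0.50) and *Eng* at 64.1 to 112 TPM (0.34, SE 0.31). Adjusted p for these 8 was 0.230 to 0.961. Of 12 sinusoidal genes 7 were lower than in livers and 1 was higher, *Wnt2*, and 8 of 10 macrophage genes were higher.

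**Figure D4:**
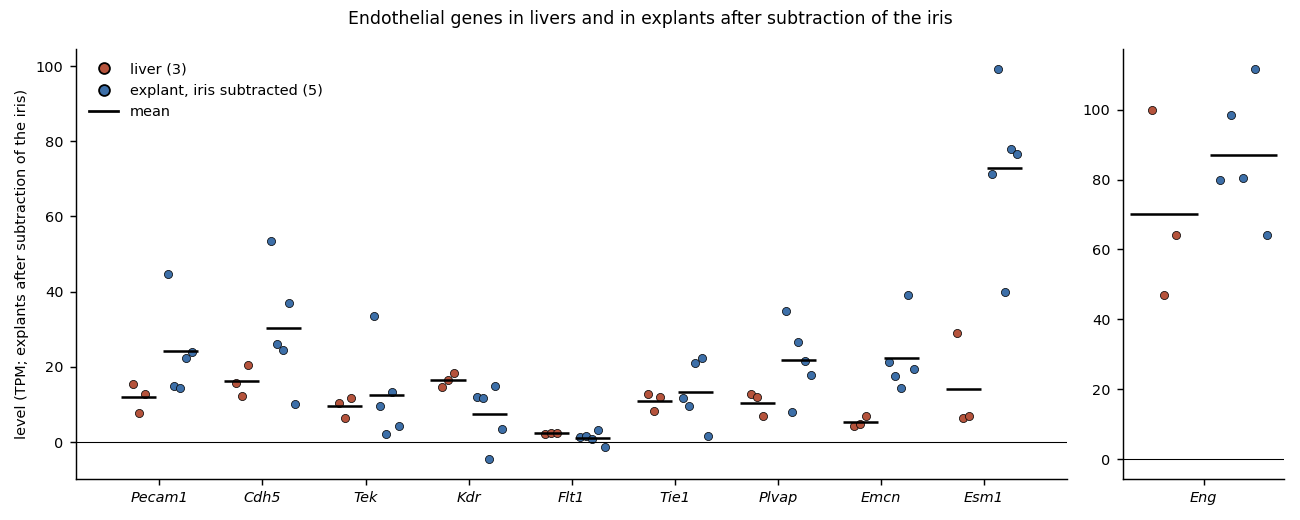
Level in TPM (vertical axes) of the 10 genes in the 3 livers and in the 5 explants after subtraction of the iris; *Eng* has its own axis and lines are means. *Esm1* lies at 39.8 to 99.2 TPM in explants against 6.38 to 28.9 TPM in livers, and *Kdr* lies at -4.56 TPM in explant 4.

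The make-up of the endothelial transcripts differed between groups, beside their amount. As a share of the summed TPM of the 10 genes, *Esm1* was 0.387% ± 0.362 in hepatocyte preparations (SD, n = 3), 7.58% ± 5.00 in livers (n = 3), 8.10% ± 2.61 in irises (n = 3), 15.8% ± 4.82 in explants (n = 5) and 19.5% ± 7.78 in in vitro spheroids (n = 2). *Emcn* was 3.34% ± 1.16 in livers and 3.27% ± 2.24 in preparations, and 14.8% ± 3.93 in spheroids, 13.7% ± 1.09 in explants and 17.8% ± 1.08 in irises. *Kdr* was the reverse in livers and preparations against the other groups, at 10.5% ± 3.40 in livers and 11.01% ± 3.14 in preparations against 2.40% ± 0.607 in spheroids, 4.25% ± 0.658 in explants and 5.44% ± 1.61 in irises. Livers and preparations overlapped for *Emcn* and *Kdr*, and both spheroid samples lay outside their range. *Tek* was lowest in spheroids, at 1.17% ± 0.818, and at 5.74% to 8.43% on average in the other groups.

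**Figure D5:**
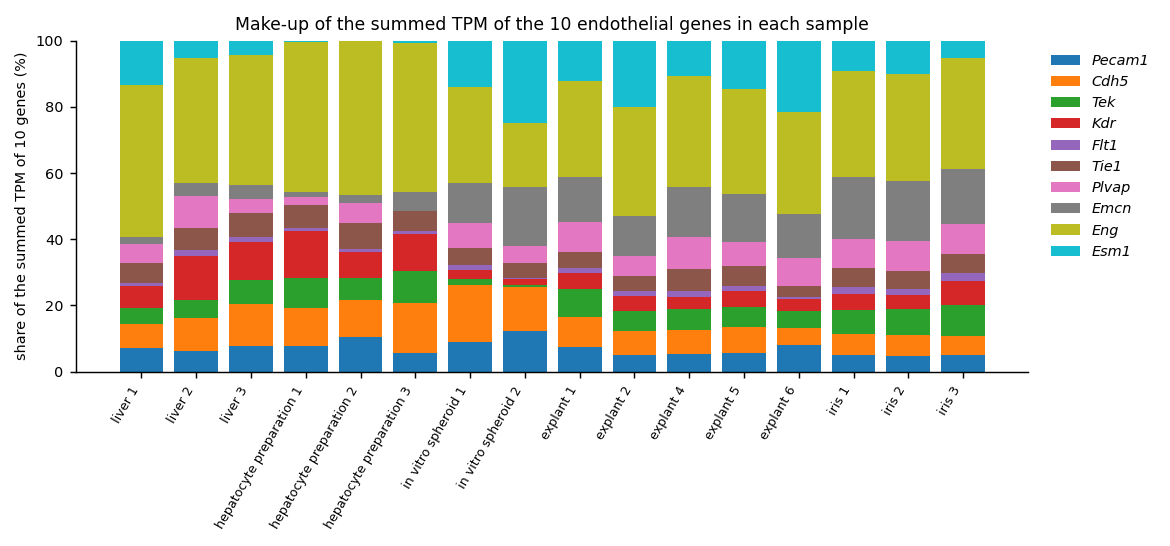
Share of each gene (percent, vertical axis) in the summed TPM of the 10 genes, a stacked bar per sample. *Esm1* makes up 10.6% to 21.4% in explants and 0% to 0.717% in hepatocyte preparations, and *Kdr* 6.73% to 13.4% in livers and 1.97% and 2.83% in in vitro spheroids.

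The 10 genes did not share a single profile over the 5 groups. The distance of a gene from their mean profile was measured as the root mean square difference of centred group means of log2(TPM + 1), over 23121 genes with at least 1 TPM in a group. It was 0.26 for *Flt1* and 0.27 for *Tie1*, 0.34 for *Eng*, 0.41 for *Pecam1*, 0.45 for *Plvap* and 0.52 for *Cdh5*, and it was 0.73 for *Kdr*, 0.77 for *Tek*, 0.91 for *Emcn* and 1.09 for *Esm1*. The nearest non-members were *Gm37052* (0.11), *Rapgef5* (0.11), *Tusc1* (0.11), *Gm37219* (0.12) and *Gm26490* (0.12), with mean levels of 8.07 TPM or less in explants. *Rapgef5* encodes an exchange factor for RAP GTPases, and was at 4.43 TPM in explants, 4.67 TPM in irises, 4.17 TPM in livers, 0.927 TPM in hepatocyte preparations and 2.28 TPM in in vitro spheroids on average. *Flt1*, the nearest member, ranked 133 among all genes compared.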

How the data were processed

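The authors aligned Smart-seq3 reads with TopHat2 to mm10, removed duplicates with UMI-tools and SAMtools, and made counts per gene with featureCounts 1.4.6-p5 over exons, unstranded, counting a read for each gene it overlaps and leaving out reads that map to several places. A read over 2 genes is thus counted for both, and TPM, which fix each sample's total, fall for every gene where a few genes take much of it. The deposited counts are sums of 3 technical libraries in 100% of cells, and the TPM deposited by the authors equal TPM recalculated from them. The deposited iris-corrected explant columns are a signal on the TPM scale, and explant 4 followed another formula than the rest, so they were rebuilt here from TPM and iris share.

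Within the groups compared, the quasi-likelihood test of edgeR 4.0.16 in R 4.3.3 was run on counts after filterByExpr and TMM scaling, and limma 3.58.1 on corrected TPM (trend, pseudocount 1, mean of at least 1 TPM). Calls needed a Benjamini-Hochberg adjusted p under 0.05. Alternatives were DESeq2 1.42.0, limma-voom, RLE or library size scaling, other filters, technical library a, a single fit of 5 groups, a log2 fold change limit of 1, a replicate block and each sample left out. Genes named are the 10 members, list genes (called ones, up to 4 a list, tissue markers and genes singled out for their level, such as *Ramp2*) and the 5 nearest profiles. The members and the 12 lists were chosen with earlier results of these data known. All 130 list genes were matched by symbol. Fits were tested on simulated data. Tables were made with Python 3.11.15, numpy 2.4.6, pandas 2.3.3 and scipy 1.17.1, and figures with matplotlib 3.10.9.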

Additional observations from a re-analysis of the deposited data

Results flagged for a closer look

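*Emcn* in explants after subtraction of the iris had 1 sample far from the rest, explant 5 at 39.1 TPM. The gap to the next explant was 0.721 of the whole range of the 5 explants, where 31 such sets of values were examined and chance alone gives such a gap in about 1 in 20. Before subtraction explant 5 was also the highest for *Emcn*, at 30.6 TPM, and the other 4 explants were at 24.1 to 26.3 TPM.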

How the results depend on the processing

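Of the values of single genes under the alternatives, 813 stayed on their side of the threshold, 41 of them with a turned sign in a gene that was not called, 121 lost a call, 48 gained one and 1 called result reversed: *Flt1* in explants against livers went from -0.59 to 0.0499 with library size alone. The cause was not tested. The counts of the 10 genes called moved as follows. In explants against irises 3 were higher, and 0 by limma-voom and 0 in a single fit of all 5 groups. The count was 1 with technical library a alone, 1 with a replicate block and 1 with an absolute log2 fold change over 1. Of 16764 genes, 1515 were higher in the main fit, 811 by limma-voom and 940 with the block. The single fit had 1251 of 17064 higher and library a 1002 of 14369. In explants against in vitro spheroids 4 were higher, and 7 with library size alone and 2 with a log2 fold change over 1. Of all 17059 genes 6401 were higher, and 8308 with library size alone, so the rise to 7 came with a rise in all genes. The 1 lower gene became 0 by limma-voom, with library size alone, without a filter and with at least 10 counts in every sample. It also became 0 with library a, in the single fit, with the block and with a log2 fold change over 1. Lower over all genes were 5032, and 4887 by limma-voom and 3040 with library size alone. In explants against livers 6 were lower, and 1 with library size alone and 1 with the block. Of all 16506 genes 5362 were lower, and 3109 with library size alone and 3647 with the block. In hepatocyte preparations against livers 3 were lower, and 7 by DESeq2, 0 by limma-voom, 6 with library size alone and 6 with the block. The count was 9 without a filter, 9 in the single fit, 1 with at least 10 counts in every sample and 1 with library a. Of 12236 genes, 347 were lower, 663 by DESeq2, 11 by limma-voom, 563 with library size alone and 397 with the block. Without a filter 1257 of 25664 were lower, and 1309 of 17064 in the single fit. With at least 10 counts in every sample 182 of 10448 were lower, and 164 of 10135 with library a. In in vitro spheroids against hepatocyte preparations 2 were lower, and 0 by limma-voom and 1 with library size alone. With at least 10 counts in every sample 1 was lower, a filter that leaves out low genes and took the 2 higher genes to 0. Of all 12247 genes 1637 were lower, and 1567 by limma-voom and 1104 with library size alone. That filter left 10281 genes, with 1278 higher and 1352 lower. In corrected explants against livers 2 were higher, and 1 with the deposited corrected columns and 0 with the block. Without correction 1 was lower where there had been 0. Of all 21002 genes 2554 were higher and 736 lower, and 0 with the block. The deposited columns had 1151 of 20489 higher, and without correction 2727 of 19764 were lower.

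Leaving out each sample in turn gave 0 to 4 higher in explants against irises, 3 to 5 higher and 0 to 1 lower in explants against in vitro spheroids, 1 to 2 higher and 5 to 6 lower in explants against livers, 0 to 5 lower in hepatocyte preparations against livers, 1 to 2 higher and 0 to 2 lower in in vitro spheroids against hepatocyte preparations, and 0 to 2 higher in corrected explants against livers. Where 1 in vitro spheroid sample was left, it was assumed to vary like the other group. Over all genes, calls higher in explants against irises went from 626 without iris 1 to 1746 without explant 1. Calls lower in hepatocyte preparations against livers went from 4 without hepatocyte preparation 3 to 404 without hepatocyte preparation 1.

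The labels do not say whether the replicate numbers pair the samples. Deviations of same-numbered samples correlated weakly, at -0.13 to 0.14. In hepatocyte preparations against livers, the comparison with 3 numbers in common, they correlated at 0.11, 0.06 and -0.04. With so few samples in a group, these values cannot show whether pairing is present or absent. Because pairing is not known, the block results are given as counts only.

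Over all genes, calls ranged from 626 to 1831 higher and 55 to 890 lower in explants against irises, 3645 to 8308 and 3040 to 5113 in explants against in vitro spheroids, 3946 to 9547 and 3109 to 5425 in explants against livers, 4 to 942 and 4 to 1309 in hepatocyte preparations against livers, and 893 to 2587 and 938 to 2419 in in vitro spheroids against hepatocyte preparations. In corrected explants against livers they ranged from 0 with the block to 11339 higher and 2727 lower without correction. Depth limits *Flt1*, *Plvap*, *Emcn* and *Esm1* in hepatocyte preparations, at 0 to 21 counts, and *Tek* and *Flt1* in in vitro spheroids, at 3 to 24 counts.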

Other observations

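Of 9 genes listed for the barrier of brain and eye vessels, all 9 were tested in explants against livers. The glucose transporter gene *Slc2a1* (log2 fold change 3.58), the Wnt effector *Lef1* (3.69), *Slco1c1* (2.82), *Abcb1a* (1.36) and *Cldn5* (1.11) were higher in explants. *Mfsd2a* (-5.56), *Foxq1* (-3.60), *Abcg2* (-1.99) and *Ocln* (-0.67) were lower. Of all genes tested there, 38.6% were called higher and 32.5% lower. Genes of this list in both directions are also expressed outside vessels, such as in hepatocytes or epithelia. Against irises *Ocln* (1.06) and *Abcg2* (0.75) were higher and 0 of 8 were lower, against 9.04% and 2.74% of all genes. After subtraction of the iris, *Lef1*, *Slc2a1*, *Cldn5* and *Ocln* were higher than in livers and *Mfsd2a* lower among 8 tested. Of all genes, 12.2% were higher and 3.5% lower there.

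Of 6 lymphatic genes, *Pdpn* (log2 fold change 4.82) and *Reln* (1.38) were higher in explants than in livers and *Prox1* (-3.44) and *Flt4* (-2.52) lower among 4 tested. Hepatocytes also express *Prox1*. *Prox1* was the 1 gene of 4 called in explants against irises, and was higher (1.86). Shares over all genes in both comparisons are those of the paragraph above. *Ccl21a* and *Mmrn1* were at 0 in all hepatocyte preparations and in vitro spheroids.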
